A study of Mus musculus with 40 samples.

Results

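Mitochondrial chaperones and proteases were examined as 10 genes: Hspd1, Hspe1, Hspa9, Dnaja3, Trap1, Lonp1, Clpp, Clpx, Yme1l1 and Afg3l2. They were picked by symbol, for the pathway, from the 43430 genes of the deposited table, and 10 of the 10 were among the 11853 genes that passed the filter on low counts and were tested. In outline, the data showed 4 things. LPS raised Yme1l1 and Trap1 and lowered several of the other members in macrophages of both genotypes. Piericidin A raised Hspe1 and Trap1 in unstimulated WT macrophages, although both calls ended without mouse 496, and comparing each mouse with itself added Hspd1, Hspa9 and Dnaja3, of which Hspa9 also passed in 3 unblocked settings. Under LPS it raised Lonp1 and lowered Yme1l1 in WT macrophages, although these calls also ended without single mice when the mouse was not a block. In NDI1 macrophages no member passed the test with piericidin A, where 0% of all genes did. The difference between genotypes itself passed only with the mouse as a block, for Hspa9 without LPS and for Lonp1 with LPS. The block called 8.96% and 9.51% of all genes in these tests, so 1 of 10 members in each was near the background.

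Most mitochondrial proteins are made in the cytosol, imported unfolded and folded inside the organelle. In the matrix the Hsp70-type chaperone pulls in and holds the incoming chain, and the barrel-shaped chaperonin with its lid encloses it while it folds. Proteins that fail are degraded by ATP-dependent proteases of the matrix and the inner membrane, and loss of this balance induces nuclear genes for chaperones and proteases, a programme called the mitochondrial unfolded protein response. Respiratory chain inhibition in mammalian cells is known to act mainly through the integrated stress response, in which Atf4 is central.

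The libraries came from bone marrow-derived macrophages (BMDMs, cells cultured from marrow with M-CSF) of 5 VAV-Cre WT and 5 VAV-Cre NDI1 mice, with the strain labelled C57/Bl6. The study's methods describe the line with the NDI1 construct as a mix of the J and N substrains. NDI1 is a yeast enzyme that oxidizes NADH in place of mitochondrial complex I and is insensitive to piericidin A, a complex I inhibitor. It was placed behind a stop cassette that the Vav-driven Cre removes in blood-forming cells, so both genotypes carried Cre, and the transgene itself was not analysed here, so the NDI1 label was not checked through it. BMDMs of each mouse were left untreated or received LPS (a bacterial outer membrane component, 100 ng/ml for 4 h), piericidin A (500 nM), or piericidin A 30 min before LPS. This gave 8 groups of 5 libraries, 40 in all, with 4 libraries from each mouse. The culture medium contained methyl pyruvate and uridine, which help cells grow without a working respiratory chain.

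Totals per library were between 6950748 and 13552070 counts. The 8 macrophage markers checked, Csf1r, Adgre1 and Cd68 among them, were present in every group, with a summed level of at least 19670 CPM (the usual depth-scaled read count, with library sizes set by the TMM method). Mouse 496 (WT) and mouse 503 (NDI1) stood apart on the second principal component, which held 7.32% of the variance: their libraries lay between 28.1 and 72.8 and those of the other 8 mice between −26.3 and 13.6. The 8 granulocyte markers summed to between 544 and 3138 CPM in these 2 mice and to between 15.1 and 194 CPM in the others. T and NK cell markers stayed at or under 1.44 CPM in sum with Ncr1 at 0. B cell markers reached 14.4 CPM, mast cell markers 8.98 CPM, dendritic cell markers 59.9 CPM and stromal markers 127 CPM, each highest in mouse 496. Within the 4 libraries of mouse 496, the granulocyte sum was lowest untreated, at 557 CPM, and highest with LPS and piericidin A, at 3138 CPM. The median over the 5 WT mice also went from 59.9 CPM untreated to 181 CPM with both treatments, and the part of these markers in the results was not tested. Results that rest on these 2 mice are given with and without them. In bulk RNA, fewer cells of a kind and less RNA per cell cannot be told apart.

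The promoters of 3 members are shown because the results below turn on these genes and because the windows differ in the motifs they hold. Each is 250 bases before to 50 after a RefSeq start site, 5′ to 3′ on the strand of the gene, on build GRCm38.p6. Capitals mark the matches: the heat shock element GAANNTTC or TTCNNGAA for Hspe1 (chr1:55087898-55088197, plus strand), the E-box CACGTG for Lonp1 (chr17:56626854-56627153, minus strand) and the ETS site CCGGAAG or CTTCCGG for Yme1l1 (chr2:23156255-23156554, plus strand).
Hspe1: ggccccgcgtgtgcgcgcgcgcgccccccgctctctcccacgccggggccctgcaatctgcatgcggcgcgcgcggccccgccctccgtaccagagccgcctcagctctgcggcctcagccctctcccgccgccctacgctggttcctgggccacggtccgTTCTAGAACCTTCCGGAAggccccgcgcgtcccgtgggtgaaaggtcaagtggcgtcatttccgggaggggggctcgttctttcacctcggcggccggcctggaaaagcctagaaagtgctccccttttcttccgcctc
Lonp1: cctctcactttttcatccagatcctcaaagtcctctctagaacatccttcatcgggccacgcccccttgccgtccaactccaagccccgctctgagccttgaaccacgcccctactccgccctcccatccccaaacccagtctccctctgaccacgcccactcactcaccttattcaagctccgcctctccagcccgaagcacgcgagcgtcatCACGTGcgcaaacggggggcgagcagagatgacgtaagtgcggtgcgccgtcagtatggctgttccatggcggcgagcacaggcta
Yme1l1: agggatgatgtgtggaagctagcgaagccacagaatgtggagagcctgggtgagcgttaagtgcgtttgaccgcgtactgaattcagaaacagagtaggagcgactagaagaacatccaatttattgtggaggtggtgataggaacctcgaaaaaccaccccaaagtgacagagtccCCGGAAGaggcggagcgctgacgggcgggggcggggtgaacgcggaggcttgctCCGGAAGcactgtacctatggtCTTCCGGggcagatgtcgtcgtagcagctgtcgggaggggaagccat
The 3 heat shock element matches of Hspe1 begin at −89, −84 and −79, counted with the start site as 0, overlap each other and also cover an ETS site. The E-box of Lonp1 starts at −36, and the 3 ETS sites of Yme1l1 at −73, −19 and 3.

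RefSeq held 9 such windows for 8 of the 10 members, 2 of them for Hspd1 and none for Hspa9 and Afg3l2. The heat shock element, the sequence that heat shock factors bind, was in 3 of the 9 windows (Hspd1, Hspe1 and Clpp) and in 15.1% of all 32851 windows of 300 bases. The ETS site was in 5 (Hspd1, Hspe1, Clpp, Dnaja3 and Yme1l1) against 8.86% of all windows. The E-box, which Myc binds, was in 2 (Hspd1 and Lonp1) against 7.15%, and the CCAAT box (CCAAT or ATTGG) in 4 against 37.4%. The core TTGCATCA or TGATGCAA, the sequence that Atf4 with C/EBP partners binds, was in 0 of the 9 and in 0.895% of all windows. A match describes these letters on either strand and is no evidence of binding. Hspd1 and Hspe1 lie head to head on chromosome 1 (mm10, 55077835 to 55088243 and 55088132 to 55091307) and overlap by 112 bases, so the window of Hspe1 shares sequence with those of Hspd1.

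The genes differed widely in level. Per kilobase of the exon length given with the deposited counts, untreated WT BMDMs expressed Hspa9 highest, at 56.7 CPM per kb, then Lonp1 (20.3), Afg3l2 (18.7), Hspd1 (17.2), Clpp (13.0), Yme1l1 (12.3), Hspe1 (12.1), Trap1 (7.72), Dnaja3 (6.25) and Clpx (4.18). The order below Hspa9 depended on the exon model: with exon lengths of GENCODE M21, Hspa9 stayed first at 69.1 CPM per kb, Hspd1 was next at 24.8, and Afg3l2 fell to 5.84. Differences between treatments do not depend on length. Untreated WT and NDI1 BMDMs overlapped in each of the 10 genes, and edgeR called 0 of them (0 of 10 also at an unadjusted p under 0.05, and 0 with DESeq2). Over all genes 0% were called in that comparison, with 39 genes at an unadjusted p under 0.05. The widest 95% interval was that of Clpp, from −0.52 to 0.38 in log2 fold change, and the narrowest that of Afg3l2, from −0.18 to 0.17.

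**Figure D1:**
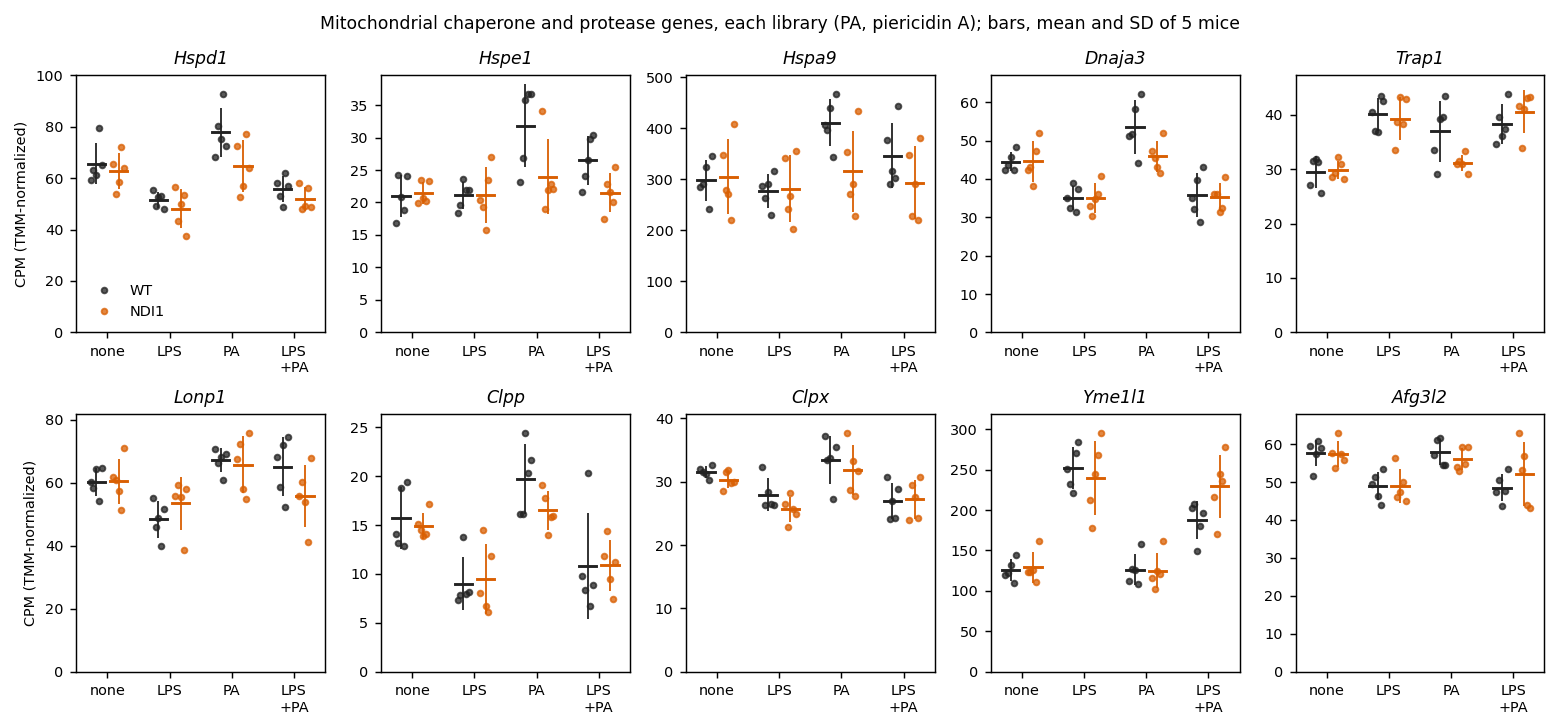
CPM of the 10 genes in each library, by treatment (PA, piericidin A), with WT in black and NDI1 in orange; points are mice, and the lines are the mean and SD of 5 mice, on linear axes that start at 0. Yme1l1 and Trap1 are higher with LPS in both genotypes, Clpp and Hspd1 are lower, and Hspa9 is highest in WT with piericidin A (mean 411 CPM).

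LPS, which activates macrophages through TLR4, was compared with no treatment to ask how the activation programme itself moved these genes. In WT BMDMs 7 of the 10 passed the test, 2 higher and 5 lower, with a median log2 fold change of −0.20 over the 10 against −0.01 over all tested genes. Of all genes, 31.5% were called higher and 31.0% lower, so 7 in 10 was close to the background. In NDI1 BMDMs 7 also passed, again 2 higher and 5 lower (31.5% and 31.2% of all genes), with a median of −0.20. The difference of the LPS effect between genotypes was called for 0 of the 10 by edgeR, with 0 at an unadjusted p under 0.05 and 0 with DESeq2, and for 0% of all genes, with 63 genes at an unadjusted p under 0.05.

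Yme1l1 encodes the inner membrane protease that faces the intermembrane space, the i-AAA protease, which processes OPA1 and degrades import components and lipid transfer proteins. In WT mice 449, 452, 453, 496 and 520 it was at 119, 122, 132, 110 and 144 CPM without treatment and at 250.8, 232, 221, 270 and 284 CPM with LPS. The lowest LPS library lay well above the highest untreated library. Its log2 fold change was 1.00 (SE 0.14, edgeR adjusted p = 7.82e-08). In NDI1 mice 447, 460, 461, 503 and 521 it went from 124, 124, 126, 111 and 161 CPM to 213, 177, 245, 267 and 295 CPM. The groups did not overlap there either, and the log2 fold change was 0.89 (SE 0.14, edgeR adjusted p = 7.20e-07).

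Afg3l2, the core subunit of the m-AAA protease on the matrix side of the same membrane, moved the other way. It was at 59.5, 51.7, 57.5, 60.7 and 58.9 CPM in untreated WT and at 49.6, 51.4, 46.4, 44.0 and 53.4 CPM with LPS. The groups overlapped, although each of the 5 mice was lower with LPS. The log2 fold changes were −0.24 in WT (SE 0.09, edgeR adjusted p = 0.0181) and −0.23 in NDI1 (SE 0.09, edgeR adjusted p = 0.0217). These calls were marginal and held in 13 of 18 settings in WT and in 14 of 18 in NDI1. Without mice 496 and 503 the edgeR adjusted p was 0.141 in WT and 0.0536 in NDI1. Leaving out mouse 449, 453 or 496 alone ended the call in WT, as did mouse 461 or 521 in NDI1.

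Trap1, the mitochondrial member of the Hsp90 family, was the only chaperone of the 10 that passed the test upward with LPS. WT libraries held 27.1, 31.5, 31.9, 31.4 and 25.6 CPM without treatment and 40.6, 37.1, 36.8, 43.5 and 42.5 CPM with LPS, and the groups did not overlap. This was a log2 fold change of 0.44 (SE 0.09, edgeR adjusted p = 0.000119). In NDI1 it went from 28.5, 29.4, 32.2, 31.0 and 28.3 to 33.5, 38.7, 43.2, 38.3 and 42.9 CPM, again without overlap, with a log2 fold change of 0.40 (SE 0.09, edgeR adjusted p = 0.000451). Trap1 shares 54 exon bases with Dnase1 on the other strand, which had 108 counts over all 40 libraries.

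Hspd1, the chaperonin Hsp60, was lower with LPS. It went from 59.1, 63.1, 61.3, 79.3 and 65.1 CPM to 55.4, 49.0, 52.8, 53.1 and 47.8 CPM in WT, with no overlap. The fall was largest in mouse 496, which had the highest untreated level. In WT the log2 fold change was −0.34 (SE 0.11, edgeR adjusted p = 0.00736), and −0.27 without mice 496 and 503 (edgeR adjusted p = 0.0374). In NDI1 it was −0.38 (SE 0.11, edgeR adjusted p = 0.00318). There 1 LPS library, that of mouse 447, lay within the untreated range. Hspe1, Hsp10, the lid of the same chaperonin, had log2 fold changes of 0.01 in WT (95% interval −0.30 to 0.31) and −0.02 in NDI1 (−0.33 to 0.28), with WT means of 20.97 CPM untreated and 21.12 CPM with LPS.

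Hspa9 encodes mortalin, the mitochondrial Hsp70, and Dnaja3 one of its J-domain partners. Hspa9 had log2 fold changes with LPS of −0.10 in WT (95% interval −0.46 to 0.26) and −0.11 in NDI1 (−0.47 to 0.24), neither of which passed the test. Dnaja3 went from 42.4, 43.8, 45.7, 42.3 and 48.3 CPM to 35.1, 32.5, 38.8, 31.3 and 37.4 CPM in WT, with no overlap. Its log2 fold change was −0.35 in both genotypes (SE 0.11, edgeR adjusted p = 0.00465 in WT and 0.00399 in NDI1). In GENCODE M21, Dnaja3 shares 153 exon bases with Coro7 on the other strand and 160 with Vasn on its own strand. The exon length given with the deposited counts is longer (7123 against 3912 bases), so the overlap in the model counted is unknown. Nothing says whether counting used strand, so the counts of Dnaja3 are less certain.

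The matrix proteases are Clpp with Clpx, and Lonp1. Clpp, the proteolytic subunit of ClpXP, went from 14.1, 13.2, 18.8, 12.9 and 19.4 CPM in WT to 7.35, 7.80, 13.8, 7.96 and 8.18 CPM, the largest fall among the 10. Only mouse 453 stayed above the lowest untreated library. The log2 fold change was −0.79 in WT (SE 0.23, edgeR adjusted p = 0.00314) and −0.66 in NDI1 (SE 0.23, edgeR adjusted p = 0.0129). In NDI1 mouse 460 was at 14.5 CPM in both conditions, and the call there was lost without mouse 447, 461 or 503 and without mice 496 and 503 together (edgeR adjusted p = 0.0580). Clpx, the unfoldase that feeds Clpp, had log2 fold changes of −0.17 in WT (SE 0.09, edgeR adjusted p = 0.101) and −0.24 in NDI1 (SE 0.09, edgeR adjusted p = 0.0218). Its NDI1 groups did not overlap (28.5 to 31.8 CPM against 22.8 to 28.2 CPM), but the call held in only 15 of 18 settings. Leaving out mouse 460 or 521 was among the settings that ended it.

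Lonp1, the matrix protease that degrades oxidized proteins and regulators of mitochondrial DNA, fell from 60.2, 58.1, 64.2, 54.2 and 64.7 CPM to 55.3, 46.0, 48.8, 39.8 and 51.8 CPM in WT. Each mouse was lower, and the groups overlapped by 1 library, that of mouse 449. The log2 fold change was −0.32 (SE 0.12, edgeR adjusted p = 0.0224), and the call ended without mouse 452, 453, 496 or 520. In NDI1 it was −0.18 (95% interval −0.42 to 0.07, edgeR adjusted p = 0.206) and passed only with the mouse as a block (edgeR adjusted p = 0.0142). Without mice 496 and 503 the block gave an adjusted p of 0.132.

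**Figure D2:**
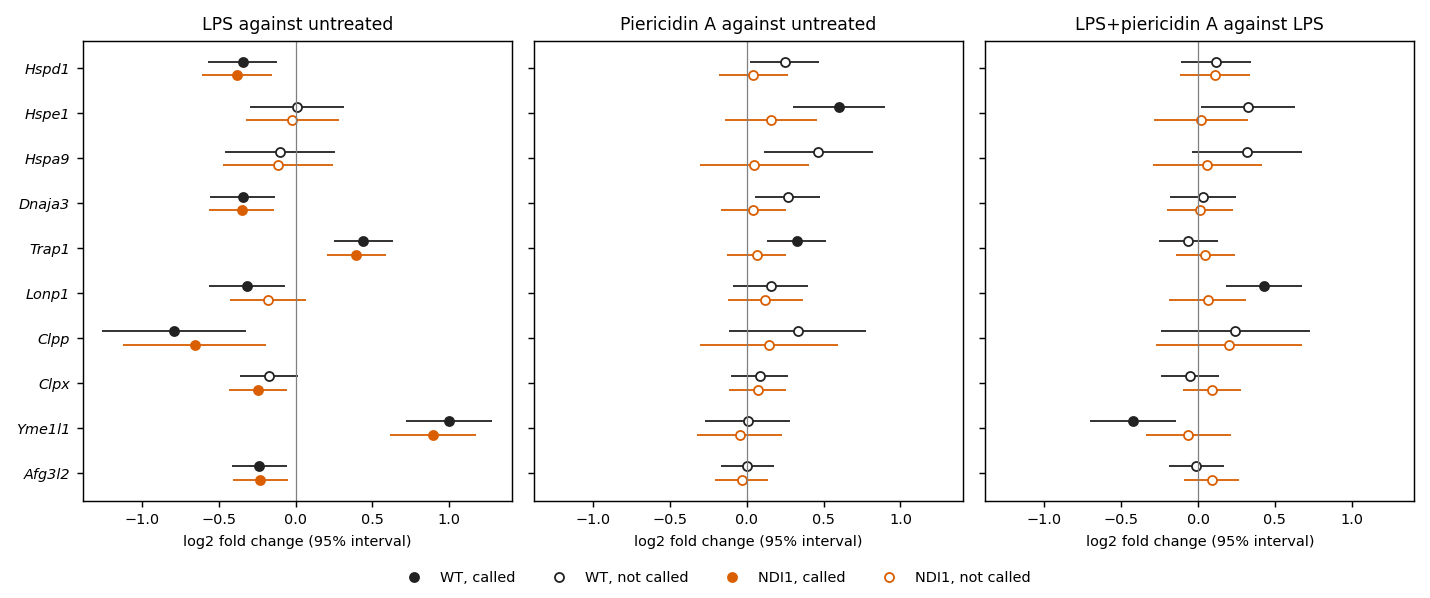
Log2 fold changes with 95% intervals for LPS (left), piericidin A without LPS (middle) and piericidin A with LPS (right), WT in black and NDI1 in orange; filled points passed edgeR's test at an adjusted p under 0.05. The LPS effects of WT and NDI1 lie close together for each gene, whereas filled points for piericidin A appear in WT only, 2 in each panel.

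Partner genes were also set against each other within mice, a comparison chosen after their values were seen. Over the 10 mice the log2 ratio of Yme1l1 to Afg3l2 changed with LPS by 1.17 ± 0.31 (SD), upward in 10 of 10 mice (exact sign-swap permutation test, p = 0.00195, the smallest that 10 mice allow, adjusted p = 0.0176 over 9 tests). That of Clpx to Clpp changed by 0.55 ± 0.44, upward in 9 of 10 (exact permutation test, p = 0.00781, adjusted p = 0.0293). That of Hspe1 to Hspd1 changed by 0.35 ± 0.36, upward in 9 of 10 (exact permutation test, p = 0.00977, adjusted p = 0.0293). Since the unequal folds of these pairs prompted the comparison, its p-values restate them and are no independent evidence. Without mice 496 and 503 the changes were 1.06, 0.51 and 0.26.

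**Figure D3:**
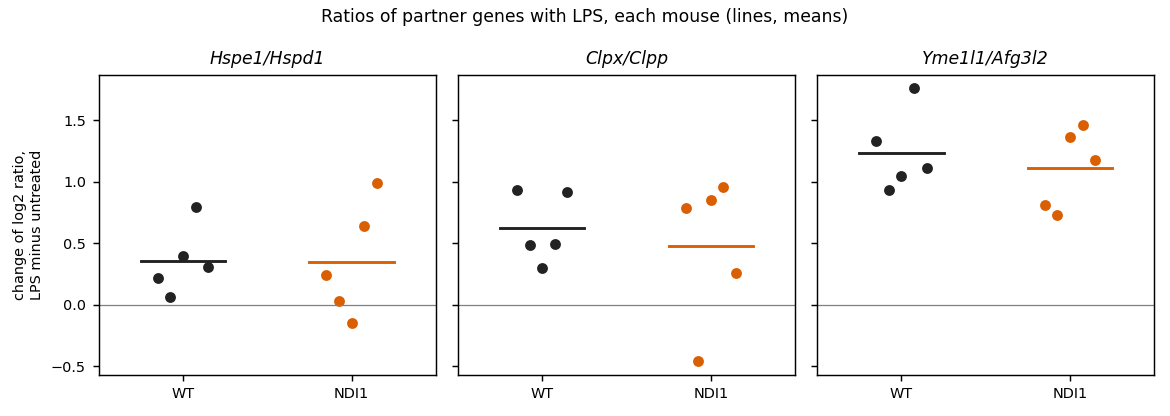
Change of the log2 ratio of partner genes with LPS (LPS minus untreated) in each mouse, WT in black and NDI1 in orange, with lines at the means of 5 mice. Points lie above 0 in 10 of 10 mice for Yme1l1/Afg3l2 and in 9 of 10 for each of the other ratios.

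Piericidin A was compared with no treatment, and with LPS alone, to ask what blocking complex I did, and NDI1 served to tell complex I activity from other actions of the compound. Within a genotype the LPS and piericidin A comparisons share the untreated libraries, and LPS against no treatment shares the LPS libraries with piericidin A under LPS. In unstimulated WT BMDMs 2 of the 10 genes passed, Hspe1 and Trap1, both higher and none lower, where 7.79% of all genes were higher and 7.05% lower. All 10 fold changes were above 0 in sign, with a median of 0.26 against 0.00 over all tested genes. The sign changed between settings for Afg3l2 (−0.05 to 0.05) and Yme1l1 (−0.03 to 0.03). An unadjusted p under 0.05 was found for 5 of the 10 and for 3386 of all 11853 genes. With the mouse as a block, which compares each mouse with itself, 5 passed, all higher: Hspd1, Hspe1, Hspa9, Dnaja3 and Trap1, the 5 chaperones of the list. Of the 5 protease genes, Clpp and Lonp1 were also higher in 5 of 5 mice and came close to the threshold with the block (edgeR adjusted p of 0.0636 and 0.0618), and the difference between chaperones and proteases was not tested. The block called 17.2% of all genes higher and 16.9% lower.

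Hspe1 was at 16.8, 24.3, 20.9, 18.8 and 24.1 CPM in untreated WT mice 449, 452, 453, 496 and 520 and at 23.1, 26.9, 35.8, 36.8 and 36.7 CPM with piericidin A. It was higher in 5 of 5 mice, and only mouse 449 with piericidin A lay within the untreated range. Its log2 fold change was 0.60 (SE 0.15, edgeR adjusted p = 0.00509). Without mouse 496, or without mice 496 and 503, it did not pass (0.51, edgeR adjusted p = 0.0781 without both), but with the block it did (0.50, edgeR adjusted p = 0.0144 without both). In NDI1 mice it was at 19.9, 23.4, 20.7, 20.2 and 23.3 CPM untreated and at 34.0, 19.0, 21.8, 22.9 and 22.1 CPM with piericidin A, high in mouse 447 alone.

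Hspd1, which shares its promoter region with Hspe1, was at 68.2, 80.4, 75.1, 92.9 and 72.4 CPM with piericidin A in WT, a log2 fold change of 0.25 (SE 0.11, edgeR adjusted p = 0.131, and 0.0120 with the block). It was higher in 5 of 5 mice, by a smaller amount than Hspe1 in 4 of them. The log2 ratio of Hspe1 to Hspd1 differed by a mean of 0.34 ± 0.35 (SD, n = 5; exact permutation test, p = 0.125, with 0.0625 the smallest p that 5 mice allow). The table names 5 processed pseudogenes of Hspe1, 2 of Hspd1 and 1 of Hspa9, which together drew few reads (17, 54 and 49 counts over 40 libraries). Reads that fit a gene and a copy equally well may have been left out of all of them.

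Hspa9 responded evenly across the WT mice. With piericidin A the WT libraries were at 407, 397, 439, 344 and 468 CPM, against 286, 290.3, 325, 241 and 346 CPM untreated, and the groups overlapped only because mouse 496 was low and mouse 520 high in both. Within mice the log2 differences were 0.51, 0.45, 0.43, 0.51 and 0.43. The log2 fold change of 0.47 missed the threshold without the block (SE 0.18, edgeR adjusted p = 0.0681) and passed it with the block (SE 0.07, edgeR adjusted p = 2.01e-06). Without the block it also passed with the compared libraries only (edgeR adjusted p = 0.0261) and when NDI1 mouse 503 (0.0364) or 521 (0.0365) was left out, but in none of the other unblocked settings. In NDI1 mice the log2 differences were 0.03, −0.04, 0.10, 0.06 and 0.09, so the highest NDI1 mouse lay below the lowest WT mouse. Such differences within mice did not overlap between genotypes for 2 of the 10 genes, Hspa9 and Hspd1, without LPS, against 11.4% of all genes, and for 1 of the 10, Lonp1, with LPS, against 9.73%. The difference between genotypes was −0.42 (edgeR adjusted p = 0.564 without the block and 0.00320 with it, and 0.0367 with the block and without mice 496 and 503).

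**Figure D4:**
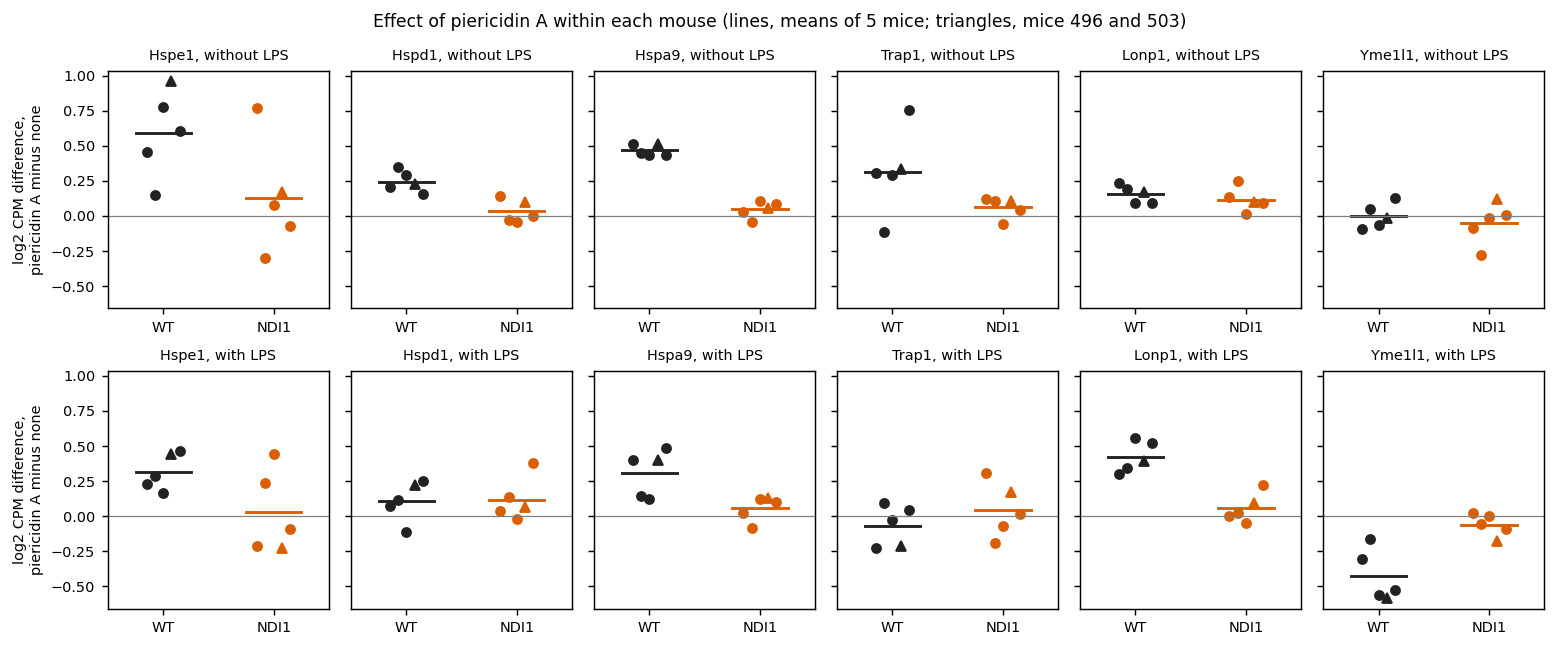
Log2 CPM difference between piericidin A and no piericidin A within each mouse, without LPS (top) and with LPS (bottom), WT in black and NDI1 in orange; lines are means of 5 mice and triangles mark mice 496 and 503. WT and NDI1 mice do not overlap for Hspa9 (0.43 to 0.51 against −0.04 to 0.10) and Hspd1 (0.15 to 0.35 against −0.04 to 0.14) without LPS and for Lonp1 with LPS (0.30 to 0.56 against −0.05 to 0.22).

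Trap1 was at 33.5, 29.1, 39.2, 39.6 and 43.4 CPM with piericidin A in WT, higher than untreated in 4 of 5 mice, with mouse 452 slightly lower. Over the 5 mice the log2 fold change was 0.32 (SE 0.09, edgeR adjusted p = 0.0169). Leaving out mouse 496 or mouse 520, which had the largest rise, ended the call, as did leaving out mice 496 and 503 (edgeR adjusted p = 0.0798), no filter on low counts (0.0827) and the compared libraries only (0.0855). Dnaja3 had a log2 fold change of 0.27 (edgeR adjusted p = 0.0776, and 0.00303 with the block). Of the proteases, Clpp had 0.33 (95% interval −0.11 to 0.77), Lonp1 0.15 (−0.09 to 0.40), Clpx 0.08 (−0.10 to 0.27), Yme1l1 0.01 (−0.27 to 0.28) and Afg3l2 0.00 (−0.17 to 0.18).

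In unstimulated NDI1 BMDMs edgeR called 0 of the 10 with piericidin A, with 0 at an unadjusted p under 0.05, 0 with DESeq2 and 0 with the block. Over all genes 0% were called, with 58 at an unadjusted p under 0.05. Their log2 fold changes lay between −0.05 (Yme1l1) and 0.16 (Hspe1), with a median of 0.06. The difference of the effect between genotypes passed for 0 of the 10 without the block (0 with DESeq2), where 1.27% of all genes passed. Without the block an unadjusted p under 0.05 was found for 1 of the 10, Hspe1, and for 1331 of all 11853 genes. With the block the difference passed for Hspa9, where 8.96% of all genes passed. In 10 of 10 genes the NDI1 effect was the lower one in value, with a median difference of −0.20 against 0.01 over all genes. The sign changed between settings for Clpx (−0.10 to 0.04) and Afg3l2 (−0.08 to 0.02). The 10 genes share the same libraries, and the share of all genes with this sign was not counted. For Hspe1 the difference was −0.44 (95% interval −0.87 to −0.02, edgeR adjusted p = 0.405, and 0.119 with the block).

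With piericidin A the WT and NDI1 groups were also compared directly, a comparison that uses the same piericidin A libraries. EdgeR called 0 of the 10 (0 with DESeq2), where 7.80% of all genes were called. An unadjusted p under 0.05 was found for 2620 of all 11853 genes and for 5 of the 10 (Hspd1, Hspe1, Hspa9, Dnaja3 and Trap1). NDI1 was lower for each of these 5, with log2 fold changes from −0.41 (Hspe1, edgeR adjusted p = 0.0818) to −0.22 (Dnaja3, edgeR adjusted p = 0.200).

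Under LPS, piericidin A was compared with LPS alone. In WT, Lonp1 was higher and Yme1l1 lower than with LPS alone, 1 of 10 in each direction, where 7.81% of all genes were higher and 8.92% lower. With the block Hspa9 joined Lonp1, which made 2 higher and 1 lower (15.6% and 18.9% of all genes). The median over the 10 was 0.07 against −0.02 over all genes.

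Lonp1 was at 68.1, 58.6, 71.9, 52.4 and 74.4 CPM with both treatments in WT, against 55.3, 46.0, 48.8, 39.8 and 51.8 CPM with LPS alone. It was higher in 5 of 5 mice, and the groups overlapped through mouse 496, whose level with both treatments was below that of mouse 449 with LPS. Its log2 fold change was 0.43 (SE 0.12, edgeR adjusted p = 0.0140, 1.58e-05 with the block). Leaving out mouse 453 or 520 ended the call without the block, at an adjusted p of up to 0.0788, whereas without mice 496 and 503 it was 0.00673. The mean of 65.1 CPM with both treatments compares with 60.3 CPM in untreated WT BMDMs. In NDI1 the log2 fold change was 0.06 (95% interval −0.19 to 0.31), from 55.6, 59.3, 55.5, 38.6 and 58.1 CPM with LPS to 55.7, 60.3, 53.7, 41.2 and 67.8 CPM with both. The difference between genotypes was −0.37 (edgeR adjusted p = 0.332 without the block, 0.0140 with it, and 0.0438 with the block and without mice 496 and 503).

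Yme1l1 was at 203, 207, 150, 181 and 197 CPM with both treatments in WT, and each of these lay below the lowest of the LPS libraries, at 221 CPM. The log2 fold change was −0.42 (SE 0.14, edgeR adjusted p = 0.0297, and 0.000470 with the block), a fall in 5 of 5 mice that left the gene above its untreated range of 110 to 144 CPM. Without the block the call was lost in 7 of 18 settings: without mouse 449, 453, 496 or 520, without mice 496 and 503 (edgeR adjusted p = 0.147), without the filter on low counts (0.0508) and with the compared libraries only (0.0582). With the block and without mice 496 and 503 it was −0.38 (edgeR adjusted p = 0.00474). In NDI1 it was at 216, 171, 245, 236 and 278 CPM with both treatments, a log2 fold change of −0.06 (95% interval −0.34 to 0.21). The difference between genotypes was 0.36 (95% interval −0.03 to 0.75, edgeR adjusted p = 0.413, and 0.0626 with the block).

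Hspa9 was at 378, 292, 317, 303 and 443 CPM with both treatments in WT, against 287, 263, 292, 229 and 317 CPM with LPS alone. All 5 mice were higher, by log2 differences of 0.12 to 0.48. Its log2 fold change was 0.32 (edgeR adjusted p = 0.214, and 0.000446 with the block), and the difference between genotypes was −0.26 (95% interval −0.76 to 0.24, edgeR adjusted p = 0.0763 with the block). Hspe1, at 0.33, was higher in 5 of 5 mice and did not pass the test (edgeR adjusted p = 0.135, and 0.0592 with the block). Trap1, which piericidin A raised without LPS, had −0.06 under LPS (95% interval −0.26 to 0.13).

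For NDI1 under LPS, 0 of the 10 passed with piericidin A in edgeR's test, in DESeq2 and with the block, and 0 had an unadjusted p under 0.05. Over all genes 0% passed, with 127 at an unadjusted p under 0.05. The difference between genotypes under LPS passed for 0 of the 10 without the block (0 with DESeq2), where 0.979% of all genes did. Without the block an unadjusted p under 0.05 was found for 1 of the 10, Lonp1, and for 1656 of all 11853 genes. With the block the difference passed for Lonp1, where 9.51% of all genes passed. Between genotypes directly, 0 of 10 were called with LPS alone (0% of all genes, 141 at an unadjusted p under 0.05, 0 members at that level and 0 with DESeq2). With both treatments 0 of 10 were called (0 with DESeq2), where 12.0% of all genes were. An unadjusted p under 0.05 was found there for 1 of the 10, Yme1l1, and for 3217 of all 11853 genes.

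Whether the effect of piericidin A in WT itself differed with LPS was tested too. It passed for 0 of the 10 without the block (0 with DESeq2), where 4.75% of all genes did. An unadjusted p under 0.05 was found for 2 of the 10, Trap1 and Yme1l1, and for 2173 of all 11853 genes. With the block 3 passed, against 17.4% of all genes. These were Lonp1 (0.27, edgeR adjusted p = 0.0426), Trap1 (−0.38, edgeR adjusted p = 0.0386) and Yme1l1 (−0.43, edgeR adjusted p = 0.0177). None of the 3 passed with the block once mice 496 and 503 were left out (edgeR adjusted p of 0.0807, 0.191 and 0.0682).

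The 10 genes did not vary as a unit. Over the 40 libraries, Pearson's r of log2 CPM between members went from −0.74 (Clpp and Yme1l1) to 0.78 (Clpp and Dnaja3), with a median of 0.33 over 45 pairs. Such values share the libraries and the LPS contrast. After the group means were removed the median was 0.07, with 28 of 45 pairs above 0. The 4 libraries of a mouse share its offset, and with the mouse means removed too the median was 0.02. Hspa9 and Lonp1 were at 0.75 as measured, 0.74 after the group means and 0.07 after the mouse means, so their correlation rested on offsets between the 10 mice. Hspd1 and Hspe1, the head-to-head partners, were at 0.37, 0.02 and −0.07. The genes most like Hspd1 over the 40 libraries were Utp15 (r = 0.87), Gpr157 (0.86), 1700017B05Rik (0.85), Plekhm2 (0.83) and Pip5k1c (0.83). Among 11852 other genes Dnaja3 was at rank 1462 (0.58), Hspe1 at 3705 and Yme1l1 at 11136 (−0.69).

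**Figure D5:**
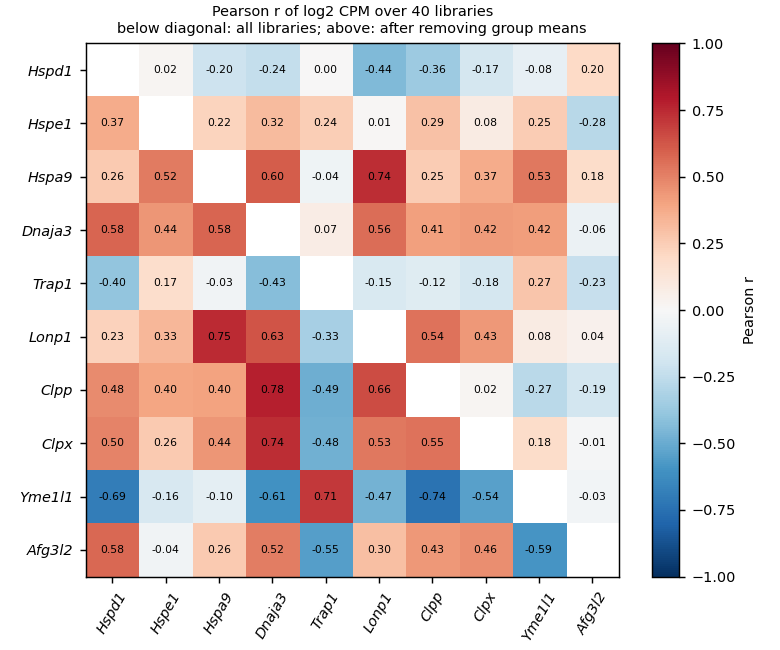
Pearson's r of log2 CPM between the 10 genes over 40 libraries, below the diagonal as measured and above it after removing group means; red is positive and blue negative. Yme1l1 and Trap1 are blue against most other members below the diagonal, and Hspa9 with Lonp1 is the strongest pair above it (0.74), a value that fell to 0.07 with mouse means removed.

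Genes that work with the members were read from lists of the same pathway. With LPS in WT, where 31.5% of all genes were called higher and 31.0% lower, 1 of 9 co-chaperones and import motor genes passed upward and 3 downward, led by the iron-sulfur co-chaperone Hscb (log2 fold change −1.60, 14.5 to 4.74 CPM, edgeR adjusted p = 1.54e-05) and the nucleotide exchange factor Grpel2 (−0.92), with Dnajc19 higher (0.47). Of 18 translocase genes 4 rose and 3 fell, with the outer membrane receptor Tomm70a at 1.14, the small chaperone Timm9 of the intermembrane space at −1.13 and the channel gene Timm23 at 0.92. Of 15 other proteases 3 rose and 5 fell, from Pmpcb, a subunit of the presequence peptidase (1.10), to Lactb (−0.996) and Atp23 (−2.74, at 0.442 CPM with LPS). Of 5 scaffolds and partners of the membrane proteases 1 rose (Maip1, 0.76) and 1 fell (Bcs1l, −1.52). The medians of these lists were 0.09, 0.02, −0.09 and −0.14.

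Among cytosolic chaperones, which fold proteins outside the mitochondria, 16 of 18 rose with LPS and 1 fell in WT (31.5% and 31.0% of all genes), with Hspa1b at 2.62, Dnaja2 at 2.17 and Hspa1a at 2.05. In NDI1 15 rose and 1 fell (31.5% and 31.2% of all genes). Of 12 chaperones of the endoplasmic reticulum 1 rose and 2 fell, and 4 and 4 with the block, which called 36.4% of all genes higher and 35.6% lower, with Hspa5 (BiP) at 1.57, Dnajb9 at −0.76 and Pdia4 at −0.63. Of 12 transcription factors linked to mitochondrial chaperone genes 11 were tested, and 7 rose and 2 fell, with Cebpb at 2.05, Ppargc1b at 1.42 and Myc at 1.20. Ppargc1a was not tested, with at most 3 counts in any library. Medians over these lists were 0.49, 0.10 and 0.47, against −0.01 over all genes and −0.20 over the 10 members.

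With piericidin A in unstimulated WT BMDMs, where 7.79% of all genes were higher and 7.05% lower, 4 of the 11 tested transcription factors rose and none fell. These were Myc (1.80, edgeR adjusted p = 0.000236), Atf4 (1.34, 151 to 381 CPM, edgeR adjusted p = 0.000369), Cebpb (1.32) and Ddit3 (1.06), the last of which is outside the naming rule and was chosen after its values were seen. Of 18 cytosolic chaperones 5 rose, Hsp90aa1 (0.45) among them, with the inducible Hsp70 genes far ahead: Hspa1a went from 2.14 ± 1.06 (SD, n = 5) to 88.0 ± 43.3 CPM and Hspa1b from 3.75 ± 1.46 to 79.0 ± 37.9 CPM, log2 fold changes of 5.34 and 4.39 (edgeR adjusted p of 1.16e-12 and 4.61e-11). These 2 genes are near-identical copies, so the split of reads between them is uncertain. Their effect differed between genotypes with and without the block, by −5.45 for Hspa1a (edgeR adjusted p = 1.28e-08) and −4.47 for Hspa1b (edgeR adjusted p = 3.97e-07). Of the translocases 3 of 18 rose (Timm8b, 0.67; Tomm7, 0.55; Tomm22, 0.25), of the endoplasmic reticulum list 1 of 12 (Sil1, 0.45), and of co-chaperones, other proteases and scaffolds none of 9, 15 and 5. List medians were 0.08 for the transcription factors, 0.20 for cytosolic chaperones, 0.21 for translocases, 0.15 for the endoplasmic reticulum, 0.31 for co-chaperones, 0.10 for other proteases and 0.24 for scaffolds.

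The block raised the counts of these lists. With it, where 17.2% of all genes were higher and 16.9% lower, 5 of the 9 co-chaperones and import motor genes rose: Grpel1 (0.40, edgeR adjusted p = 7.33e-05), Grpel2 (0.33), Hscb (0.46), Dnajc15 (0.41) and Timm44 (0.24), all of them genes that act with the mitochondrial Hsp70 itself. Translocases then had 6 rises and 1 fall (Timm22, −0.30), cytosolic chaperones 10 rises, the endoplasmic reticulum 4 rises and 1 fall, other proteases 1 rise (Pmpcb, 0.27) and scaffolds 1 (Stoml2, 0.26). The transcription factors had 5 rises and 3 falls, with Atf5, a factor named in the mitochondrial unfolded protein response, added at 0.48 (edgeR adjusted p = 9.05e-05). Genes named here from the block were chosen after their values were seen.

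Under LPS, piericidin A in WT moved few genes of these lists, where 7.81% of all genes were higher and 8.92% lower: Hscb (1.16) and Bcs1l (0.92) rose, and Timm22 (−0.60), Tfam (−0.52), Dnaja1 (−0.48) and Dnajc3 (−0.37) fell, while 0 of 15 other proteases passed the edgeR test. Tfam encodes the packaging factor of mitochondrial DNA. Of 18 cytosolic chaperones 0 rose and 1 fell here, and 0 rose and 5 fell with the block, which called 15.6% of all genes higher and 18.9% lower. With the block, other proteases had 2 rises (Htra2 and Lactb) and 1 fall (Pmpca), transcription factors 2 rises (Atf5 and Ddit3) and 2 falls (Esrra and Tfam), and the endoplasmic reticulum 1 rise (Pdia4) and 2 falls, these genes again chosen after their values were seen. In NDI1, piericidin A moved 0 genes of each list with and without LPS, in edgeR's test with and without the block. Each of these tests also called 0 of all genes, so the counts say nothing particular about the lists.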

How the data were processed

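RNA-seq was performed on BMDMs of 5 WT and 5 NDI1 mice under 4 treatments. The authors deposited raw counts of reads per gene: per the labels and methods, reads were demultiplexed with bcl2fastq, trimmed with Trimmomatic, aligned to mm10 with STAR and counted with HTSeq. Which annotation release was used, and whether counting was stranded, is not given in the sources used here. Symbols matched 42462 of 43430 gene identifiers, coordinates are those of the table, and 0 other columns of single samples were left unused. A column of reads assigned to no library was used only for 1 value, given in the closing section.

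Counts were tested in R 4.3.3 with edgeR 4.0.16 (filterByExpr over the 8 groups, TMM, glmQLFit over 40 libraries with 1 mean per group, glmQLFTest). P-values were adjusted by Benjamini-Hochberg over 11853 genes, with a threshold of 0.05. SE is the log2 fold change over the square root of F. Log2 CPM used a prior count of 2. Ratios of partner genes were tested by two-sided exact sign-swap permutation (scipy 1.17.1), adjusted over 9 tests.

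Libraries of a mouse were paired by the number in their titles. Deviations from group means correlated at a mean of 0.453 (0.0995 to 0.769, 60 pairs) within mice against −0.107 (240 pairs) between mice, so the mouse was also fitted as a block. Replicates were compared in 80 pairs within groups, and the lowest chi-square per degree of freedom was 9.32, so none repeated another library of its group. Libraries of different groups were not compared in this way. Counting error covers only part of the spread, and reads carry no molecular identifiers.

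Members and lists were chosen with earlier results of these data known. Of each list, up to 3 called genes with the largest fold change are named by rule, and any others are said to be chosen after their values were seen. Alternatives were DESeq2 1.42.0, RLE factors, no filter, at least 10 counts in every library, the compared libraries only, the block, each mouse left out, a prior count of 0.5 and, chosen after seeing the data, mice 496 and 503 left out. The main edgeR fit was tried on simulated counts, for LPS in WT and for piericidin A with LPS in WT. The block and the other alternatives were not tried in this way. Motifs were searched on both strands of RefSeq windows (GRCm38.p6).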

Additional observations from a re-analysis of the deposited data

Results flagged for a closer look

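Of 80 combinations of member and group, 5 had a library far from the other 4. Chance alone gives about 1 in 20 if values are normal and groups independent, but here the groups share mice, so the rate is only a rough guide. Hspe1 was at 34.04 CPM in mouse 447 among NDI1 BMDMs with piericidin A, where the others lay between 19.0 and 22.9. Lonp1 was at 38.56 CPM in mouse 503 with LPS, against 55.5 to 59.3 in the other NDI1 mice. Clpp was at 13.83 CPM with LPS and at 20.34 CPM with LPS and piericidin A in WT mouse 453, against 7.35 to 8.18 and 6.70 to 9.79. Trap1 was at 33.84 CPM in mouse 460 with both treatments, against 41.2 to 43.3 in the other NDI1 mice.

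The effect of piericidin A differed between genotypes, by a test of the difference itself with the mouse as a block, for Hspa9 without LPS (−0.4217, edgeR adjusted p = 0.00320) and for Lonp1 with LPS (−0.3674, edgeR adjusted p = 0.0140). With the block 8.96% and 9.51% of all genes passed these tests, so 1 of 10 members in each was near the background, and neither passed without the block.

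Among reads assigned to no library the 10 genes took 0.1769% of the counts, above the range of the 40 libraries, 0.0507% to 0.126%.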

How the results depend on the processing

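Combinations of member and comparison called in at least 1 setting numbered 32, and none of these changed direction in any setting, while 48 of the 108 called in none did. In unstimulated WT BMDMs the 2 members called with piericidin A became 1 without the filter on low counts, 5 with the mouse as replicate block, 0 without mice 496 and 503, 5 with the block without these mice, and 0 to 3 with each mouse left out. Under LPS the 2 called in WT became 1 without the filter, 1 with the compared libraries only, 1 without mice 496 and 503, and 0 to 2 with each mouse left out. The difference of the piericidin A effect between genotypes went from 0 to 1 called member with the block, without and with LPS, and was also 1 with the block without mice 496 and 503. The change of the piericidin A effect with LPS in WT went from 0 to 3 with the block, and to between 0 and 1 with each mouse left out, as did NDI1 against WT with piericidin A. LPS called 7 members in each genotype, with 5 to 7 in WT and 5 to 7 in NDI1 when each mouse was left out. The block changed no other count by over 1.5 times. No block was possible between genotypes within a treatment, since each mouse has a single genotype. Hspe1, Trap1, Lonp1 and Yme1l1 calls with piericidin A each rest on single mice without the block. The cause of these shifts was not tested. Clpp, with as few as 46 counts in a library, is the least precise member, and counts cannot place reads that fit overlapping genes.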
